A study of Bos taurus with 13 samples.

Results

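Complement is a set of plasma and cell-surface proteins that marks microbes and damaged cells for uptake. Its classical pathway starts when C1q, built from the chains of *C1QA*, *C1QB* and *C1QC*, binds antibody on a surface. The proteases that follow, C2 among them, form an enzyme that cleaves C3, the protein on which all pathways meet. The alternative pathway uses factor B (*CFB*), factor D (*CFD*) and properdin (*CFP*), which stabilises its enzyme. C5AR1 is the receptor of the fragment C5a on neutrophils and monocytes, and SERPING1 is the inhibitor of the C1 proteases. Most of these proteins in plasma come from the liver, whereas C1q comes mainly from monocytes, macrophages and dendritic cells, and properdin from myeloid cells.

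These 10 genes were chosen by name, and 8 of them were found among the 16095 named genes counted in whole blood RNA. The blood came from lactating, clinically healthy Italian Simmental cows of 1 commercial farm, a breed that the labels call Italian Red Pied. The cows stood at the upper (high group, 7 cows, replicates 1 to 7) or the lower end (low group, 6 cows, replicates 8 to 13) of milk cortisol, a hormone that was measured as a marker of stress. No cow was treated, age is not given in the sources used here, and milk cortisol was not assigned to a single cow. Blood was drawn into PAXgene tubes, which fix RNA at sampling, so all blood cells contributed and their shares were not measured. In such bulk RNA, fewer cells of a type and less RNA per cell cannot be told apart.

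Named genes received 11045599 to 28124575 reads per cow, and the median was 18595924 in the high group and 17381198 over all cows. All 8 genes passed the filter on low counts, and *SERPING1* had the fewest, with 32 to 257 counts per cow. Markers of the cells of blood were present. The summed level of 6 neutrophil genes lay between 4105 and 8938 CPM (counts per 1000000 counted reads), that of 8 T-cell genes between 2451 and 4234 CPM, and that of 8 monocyte genes between 741 and 1584 CPM. Of 9 listed hepatocyte genes, 8 had a row in the count tables and 0 passed the filter, with at most 4 counts of albumin (*ALB*) and 6 of *APOA1* in any cow.

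*CFB* and *CFD* carried no counts under these names and were not analysed here. In the RefSeq gene table of ARS-UCD2.0, *CFB* lies between *NELFE* and *C2*, and the count tables place 18 exons of genes without a name in that interval, on chromosome 23 from 27225270 to 27231292. In the same gene table, *CFD* lies 2539 bases from *ELANE* and has a gap of 0 bases to *MED16*. In the count tables, 8 exons without a name lie between *ELANE* and *MED16*, on chromosome 7 from 45028194 to 45034833. Reads on such exons are summed with those of all other unnamed genes, an entry that took 13.9% to 16.7% of the reads counted in each cow.

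Positions are those of the count tables, on UMD3.1, and each value of a gene is the sum over its exons. *C1QB* (chromosome 2, 130769172 to 130775911), *C1QC* (130783987 to 130788357) and *C1QA* (130792855 to 130795743) follow each other on the minus strand, with 8076 bases between the first pair and 4498 bases between the second. *C2* lies on chromosome 23 from 27231725 to 27243367 (minus strand) and *C3* on chromosome 7 from 18989689 to 19025591 (plus strand). *CFP* lies on chromosome X from 91441704 to 91447087 (minus strand). *C5AR1* lies on chromosome 18 from 54753334 to 54767002 (plus strand), 10173 bases before *C5AR2*, which encodes the other C5a receptor. *SERPING1* lies on chromosome 15 from 82159474 to 82172143 (plus strand). No named gene overlapped any of the 8.

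Among the 8 genes, the C1q chains, properdin and the C5a receptor were the abundant transcripts, and *SERPING1* was the rarest. Per kilobase of exon, the mean over the 13 cows was 220 CPM for *C1QA*, 207 CPM for *CFP*, 147 CPM for *C5AR1*, 143 CPM for *C1QB* and 138 CPM for *C1QC*. On the same scale *C2* had 23.7 CPM, *C3* 23.6 CPM and *SERPING1* 3.52 CPM, where the median of all genes tested was 12.7 CPM. *C1QC* lay above *C2*, and *C3* above *SERPING1*, in all 13 cows, so these steps in the order exceeded the spread between cows. *CFP* lay above *C5AR1* in 12 of 13 cows and *C1QB* above *C1QC* in 10. The order of *C1QA* and *CFP* (7 of 13 cows), of *C5AR1* and *C1QB* (5 of 13) and of *C2* and *C3* (5 of 13) changed from cow to cow.

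The spread between cows differed widely from gene to gene. *C2* ranged 12.3-fold from the lowest to the highest cow, *SERPING1* 5.45-fold, *C5AR1* 4.52-fold and the C1q chains between 3.36-fold and 3.65-fold. *C3* ranged 2.62-fold and *CFP* 2.04-fold. The SD of log2 CPM of *C2* was 1.13, above that of 98.9% of all genes tested, and that of *SERPING1* was 0.83, above 95.9%. That of *CFP* was 0.27, below the median of all genes of 0.31.

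**Figure D1:**
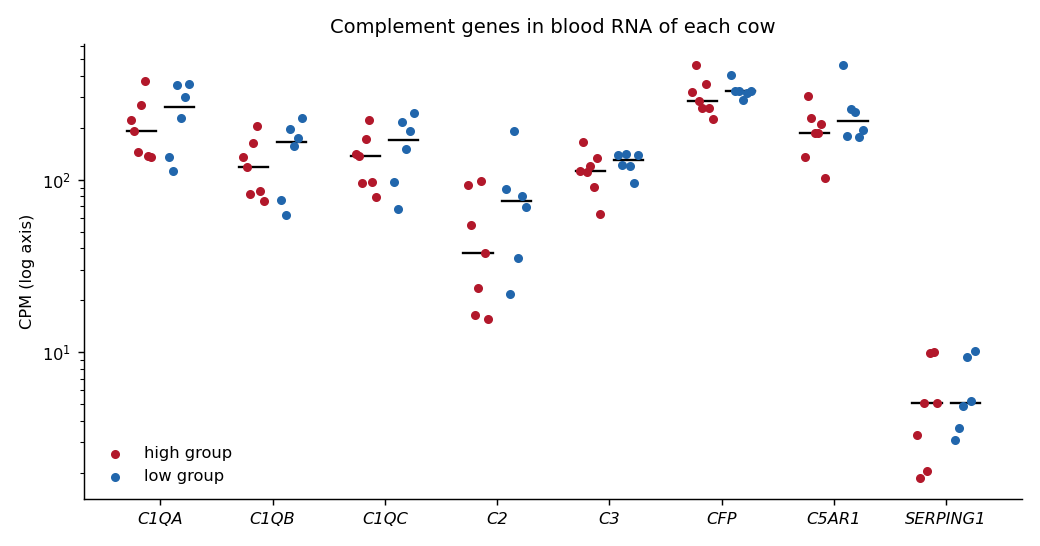
Level of each gene in each cow, in CPM after TMM normalization (log axis), with the high group in red and the low group in blue. Points are cows and black lines are group medians. The groups overlap in all 8 genes, *C2* spreads 12.3-fold over the cows and *CFP* 2.04-fold.

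The comparison of the high with the low group asks whether these genes differ with milk cortisol. For none of the 8 was a difference detected, and the values of the groups overlapped for each. In the quasi-likelihood test of edgeR, 0 of the 8 had an unadjusted p below 0.05, where 2.09% of all 11033 genes tested did (231 genes). At an adjusted p below 0.05, 0 of the 8 were called, as were 0% of all genes. The adjusted p was 0.998 for each of the 8. DESeq2 and limma-voom also gave 0 of the 8 at either threshold. Exact two-sided permutation tests of log2 CPM over the 1716 possible groupings of 7 and 6 cows, which can give a p as small as 5.8e-04, gave unadjusted p between 0.233 and 0.592 (adjusted 1.00 over all genes).

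The chains of C1q, which starts the classical pathway, had similar patterns over the cows. *C1QA* had 136 CPM in the lowest high cow, a median of 192 CPM and 375 CPM in the highest. In the low group it had 112, 265 and 357 CPM. Both extremes of the low group thus enclosed 6 of the 7 high cows, and replicate 5 of the high group was the highest of all. Its mean was 211 CPM ± 88.01 (SD, n = 7) in high cows and 248 CPM ± 107 (SD, n = 6) in low cows. The log2 fold change was -0.23 (standard error 0.30, 95% interval -0.86 to 0.40), where negative values mean lower levels in the high group.

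*C1QB* had 75.6, 118 and 206 CPM (lowest, median, highest) in the high group and 62.0, 165 and 226 CPM in the low group. *C1QC* had 79.5, 138 and 223 CPM in the high group against 67.2, 171 and 244 CPM. Both were highest in replicate 13 and lowest in replicate 9 of the low group. High against low, the log2 fold change was -0.27 (standard error 0.30, 95% interval -0.90 to 0.37) for *C1QB* and -0.25 (standard error 0.29, 95% interval -0.86 to 0.35) for *C1QC*.

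*C2*, the protease that supplies the enzymatic part of the classical C3 convertase, had the most negative estimate in the fit without covariates. It had 15.5 CPM in the lowest high cow, a median of 37.5 CPM and 97.7 CPM in the highest, against 21.9, 75.0 and 191 CPM in the low group. Replicate 10 of the low group lay far above the other 12 cows, all at or below 97.7 CPM, and replicates 1 and 5 of the high group were the next highest. The mean was 48.5 CPM ± 35.0 (SD, n = 7) against 81.1 CPM ± 59.9 (SD, n = 6). This is a log2 fold change of -0.74 with a standard error of 0.52 and a 95% interval from -1.85 to 0.37 (edgeR, unadjusted p 0.175, adjusted p 0.998). Leaving out replicate 10 of the low group gave -0.28, and leaving out replicate 5 of the high group gave -1.01. Adding the log2 share of haemoglobin counts to the fit gave -0.10, and adding the interferon score of each cow, a mean over interferon-induced genes, gave -0.050.

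*C3* had 62.9 CPM in the lowest high cow, a median of 113 CPM and 165 CPM in the highest, against 95.8, 131 and 140 CPM in the low group. Replicate 2 and replicate 7 of the high group held the highest and the lowest value of all cows. High against low, the estimate on the log2 scale was -0.15 (standard error 0.17, 95% interval -0.52 to 0.21).

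*CFP*, properdin, had 226, 287 and 461 CPM in the high group and 288, 325 and 406 CPM in the low group, again with replicates 2 and 7 of the high group at both ends. Of the 6 low cows, 5 lay between 288 and 327 CPM. The log2 fold change was -0.09 (standard error 0.15, 95% interval -0.41 to 0.22), the narrowest interval of the 8 genes.

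*C5AR1*, the receptor, had 103, 186 and 304 CPM in the high group and 177, 220 and 465 CPM in the low group. Replicate 8 of the low group held the highest value and replicate 7 of the high group the lowest. Its mean was 193 CPM ± 65.1 (SD, n = 7) against 253 CPM ± 109 (SD, n = 6). This is a log2 fold change of -0.39 with a standard error of 0.25 and a 95% interval from -0.92 to 0.14 (edgeR, unadjusted p 0.141, adjusted p 0.998). Leaving out replicate 2 of the high group gave -0.53 (unadjusted p 0.0465, adjusted p 0.913, edgeR), and without replicate 8 of the low group it was -0.12. With the haemoglobin covariate it was also -0.12, and with the interferon score -0.094.

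*SERPING1*, the inhibitor, had 1.85, 5.04 and 10.0 CPM in the high group and 3.103, 5.06 and 10.1 CPM in the low group, nearly the same medians. Replicates 5 and 6 of the high group and 11 and 13 of the low group had 9.41 to 10.1 CPM, and the other 9 cows had at most 5.23 CPM. Its log2 fold change was -0.19 (standard error 0.41, 95% interval -1.06 to 0.68), and it was 0.016 without replicate 13 of the low group.

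**Figure D2:**
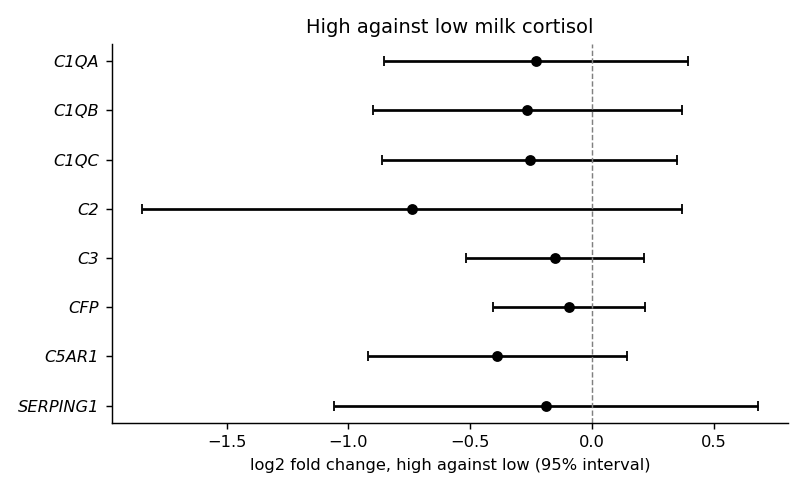
Log2 fold change of each gene, high against low group, from edgeR's quasi-likelihood fit (horizontal axis). Points are estimates and bars are 95% intervals. All 8 estimates lie below 0, from -0.74 for *C2* to -0.09 for *CFP*, and all 8 intervals include 0.

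All 8 estimates were negative, with a median of -0.24, while 5148 of all 11033 genes had a negative estimate and the median of all genes was 0.01. The 3 C1q chains are close to 1 measurement, since they varied together, so the 8 are not separate observations. Some covariates turned the direction. With the log2 haemoglobin share of counts in the fit, the log2 fold change was 0.23 for *C3*, 0.14 for *CFP*, 0.017 for *C1QB* and 0.065 for *C1QC*, while that of *C1QA* was -0.0072 and that of *SERPING1* -0.69. With the interferon score it was 0.057 for *CFP* and between -0.14 and -0.048 for the other 7. The haemoglobin share was 0.0282% to 0.815% in the high group and 0.0114% to 0.0552% in the low group. The score of 3 erythroid genes, their mean centred log2 CPM, was 1.54 higher in the high group (exact permutation p 0.0181, adjusted over 9 marker lists 0.163), the largest difference of the 9. The part of red-cell RNA in these values was not tested.

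The 3 C1q chains varied almost as 1 gene across the 13 cows. Pearson's r of log2 CPM was 0.99 for each of the 3 pairs of chains, with a two-sided permutation p of 1e-05, the smallest that 100000 resamples can give. Spearman's rho was 0.98, 0.96 and 0.98 for *C1QA* with *C1QB*, *C1QA* with *C1QC* and *C1QB* with *C1QC*. Without the 2 cows farthest from the median of the first gene, r was still 0.99 in each pair. Per kilobase, *C1QA* stood at 1.55 ± 0.098 (SD, n = 13) times *C1QB*, between 1.34 and 1.67 in single cows. *C1QC* stood at 0.974 ± 0.067 times *C1QB*. In the protein the chains are present in equal numbers. The ratio of *C1QA* to *C1QB* was 1.55 in the high and 1.54 in the low group.

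**Figure D3:**
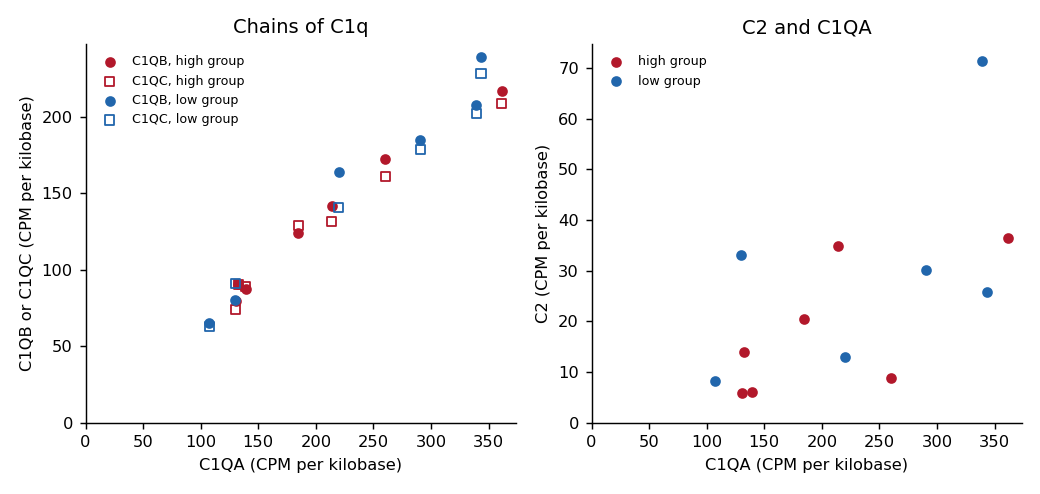
Left, *C1QB* (filled circles) and *C1QC* (open squares) against *C1QA* in each cow, in CPM per kilobase. Right, *C2* against *C1QA* on the same scale, with the high group in red and the low group in blue. The chains follow *C1QA* in a line over a 3.36-fold range, while *C2* scatters around it.

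With the pairs of chains, 28 pairs were compared in all, and the p-values given here are not adjusted for that number. *C2* followed the C1q chains loosely, with r of 0.63 with *C1QA* (permutation p 0.0219, rho 0.57, p 0.0478), 0.60 with *C1QB* and 0.67 with *C1QC*. Without the 2 cows farthest from the median of *C2*, these were 0.50, 0.47 and 0.53. *C3* and *C5AR1* varied together, with r of 0.74 (permutation p 0.00575) and rho of 0.75 (p 0.00466), and r was 0.50 without the 2 cows farthest from the median of *C3*. *CFP* and *C5AR1* had r of 0.65 (permutation p 0.0161) and rho of 0.43 (p 0.139), and r fell to 0.41 in the same way. For *C3* and *CFP*, r of 0.59 (permutation p 0.0365, rho 0.52, p 0.0714) became -0.03, so this r depended on those 2 cows. Between the C1q chains and *C5AR1*, r lay between -0.06 and 0.06. Without the 2 cows farthest from the median of the chain, it was -0.095 for *C1QA*, -0.50 for *C1QB* and -0.41 for *C1QC*. *SERPING1* had r between -0.32 and 0.29 with the other 7 genes.

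**Figure D4:**
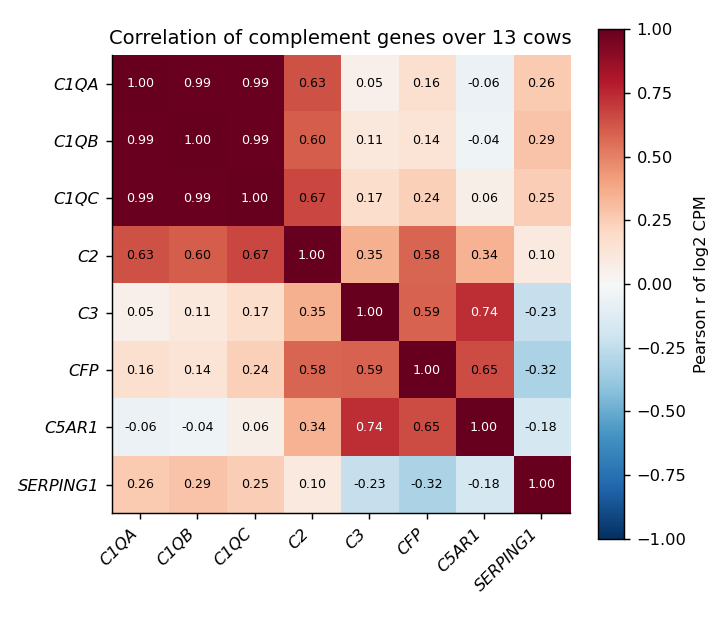
Pearson's r of log2 CPM between the 8 genes over the 13 cows, from -1 (blue) to 1 (red), printed in each cell. The C1q chains form a block at 0.99, *C3*, *CFP* and *C5AR1* a looser one between 0.59 and 0.74, and *C2* has r of 0.58 with *CFP* and 0.60 to 0.67 with the chains.

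The next question was how far the genes follow interferon-induced genes across cows. Type I interferon induces a set of antiviral genes in blood leukocytes, and complement genes are among those that interferons can raise. The interferon score of a cow is the mean of the centred log2 CPM of 22 interferon-induced genes (*ISG15*, *IFIT1*, *Mx1* and others, 26 listed), and none of the 8 complement genes is in it. It ranged from -0.90 to 1.58, and it was 0.74 lower in the high than in the low group by means (exact permutation p 0.101, adjusted over 9 marker lists 0.302). Replicate 8 of the low group and replicate 5 of the high group held the highest scores.

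With group in the fit, all 8 slopes on this score were positive, where 5544 of 11033 genes had a positive slope. By edgeR's test, 0 of the 8 were called at an adjusted p of 0.05, against 0.634% of all genes (70 genes, 19 of them in the list of 22). At an unadjusted p below 0.05, 2 of the 8 had a positive slope, *C2* and *CFP*, against 6.2% of all genes. DESeq2 and limma-voom called 0 of the 8 as well.

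*C2* had the steepest slope, 0.94 log2 units per unit of score (standard error 0.34, unadjusted p 0.0164, adjusted p 0.213). Over the 13 cows its r was 0.73 (permutation p 0.00512, adjusted 0.175) and its rho 0.76 (p 0.00386, adjusted 0.101). The r was 0.75 without the 2 cows with the most extreme scores, and 0.68 within the high and 0.68 within the low group. Of the 5 cows with a positive score, all had at least 69.3 CPM of *C2*. Replicate 1 of the high group, with 93.5 CPM and a score of -0.62, stood apart from this pattern. The slope was at least 0.78 with any 1 cow left out.

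*CFP* had a slope of 0.21 (standard error 0.094, unadjusted p 0.0416, adjusted p 0.279), with r of 0.59 (permutation p 0.0326, adjusted 0.236) and rho of 0.75 (p 0.00463, adjusted 0.103). The r was 0.42 without both extreme cows, 0.53 within the high and 0.79 within the low group. *C5AR1* had a slope of 0.34 (standard error 0.16, unadjusted p 0.0548, adjusted p 0.299), which became 0.087 when replicate 8 of the low group was left out and 0.55 when replicate 5 of the high group was (unadjusted p 0.0114, adjusted p 0.598).

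The C1q chains had slopes between 0.23 and 0.31 and r between 0.29 and 0.38, and their relation to the score depended on 2 cows. In the plot of *C1QA* against the score, replicate 5 of the high group has both the highest *C1QA* and a score of 1.18, while replicate 8 of the low group has the highest score and only 135 CPM. Without both, r was 0.61, 0.57 and 0.61 for *C1QA*, *C1QB* and *C1QC*. Without replicate 8 of the low group alone the 3 slopes were 0.47 to 0.54 (edgeR, unadjusted p 0.00989 to 0.0329, adjusted p 0.211 to 0.259). Without replicate 5 of the high group the slopes were -0.018, -0.10 and 0.049. *C3* (slope 0.01, r 0.16) and *SERPING1* (slope 0.15, r 0.17) had the lowest values of the 8, and the slope of *SERPING1* was -0.41 without replicate 5 of the high group.

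The monocyte score was built in the same way from 8 genes, *CD14*, *CSF1R* and *CD163* among them. It ranged from -0.74 in replicate 7 to 0.45 in replicate 2 of the high group, with nearly equal means in the groups (difference 0.01, exact permutation p 0.963). By edgeR's test, 0 of the 8 complement genes were called for it, against 0.0544% of all genes (6 genes). At an unadjusted p below 0.05, 3 of the 8 had a positive slope, *C3*, *C5AR1* and *CFP*, against 8.91% of all genes. DESeq2 called *C3* and *C5AR1* (adjusted p 0.00801 and 0.0082), among 226 of the 14377 genes in that fit. With limma-voom, 0 of the 8 were called, as were 10 of all 11033 genes.

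*C3* had a slope of 0.92 log2 units per unit of monocyte score (standard error 0.22, unadjusted p 7.2e-04, adjusted p 0.128 from edgeR's test), with r of 0.77 (permutation p 0.0048, adjusted 0.171) and rho of 0.42 (p 0.157, adjusted 0.459). Without replicates 7 and 2 of the high group, r was 0.22, so the relation rested on those cows. *C5AR1* had a slope of 1.31 (standard error 0.31, unadjusted p 8.0e-04, adjusted p 0.132), with r of 0.69 (permutation p 0.014, adjusted 0.236) and rho of 0.47 (p 0.106, adjusted 0.382), and r was 0.38 without the same 2 cows. *CFP* had a slope of 0.52 (standard error 0.23, unadjusted p 0.0406, adjusted p 0.308) and r of 0.51, which became -0.31 without them.

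For the C1q chains, which monocytes express, the relation to the monocyte score depended on 1 cow. Their slopes were -0.39, -0.27 and -0.17 for *C1QA*, *C1QB* and *C1QC* (edgeR, unadjusted p 0.527, 0.664 and 0.772). Without replicate 7 of the high group they were -1.78, -1.67 and -1.52 (unadjusted p 0.0200, 0.0334 and 0.0388, adjusted p 0.290 to 0.318). Over all 13 cows, their r was -0.14, -0.09 and -0.04 for *C1QA*, *C1QB* and *C1QC* (permutation p 0.676, 0.775 and 0.907). Within the 6 low cows r was -0.93, -0.90 and -0.90, and within the 7 high cows it was 0.22, 0.31 and 0.39. Without the 2 cows with the most extreme scores, which are both in the high group, r was -0.66, -0.64 and -0.65. The difference between the groups was not tested. *SERPING1* had r of -0.45 (permutation p 0.117) and rho of -0.66 (p 0.0156, adjusted 0.161), and its slope was -3.03 without replicate 7 of the high group (unadjusted p 0.0159, adjusted p 0.287) against -1.23 with all cows. *C2* had r of 0.01 over the 13 cows, and -0.68 without the 2 cows with the most extreme scores. Within the high group its r was 0.20 and within the low group -0.48. The slope of *C2* was -0.45 with all cows and -2.24 without replicate 7 of the high group (edgeR, unadjusted p 0.0787, adjusted p 0.383).

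**Figure D5:**
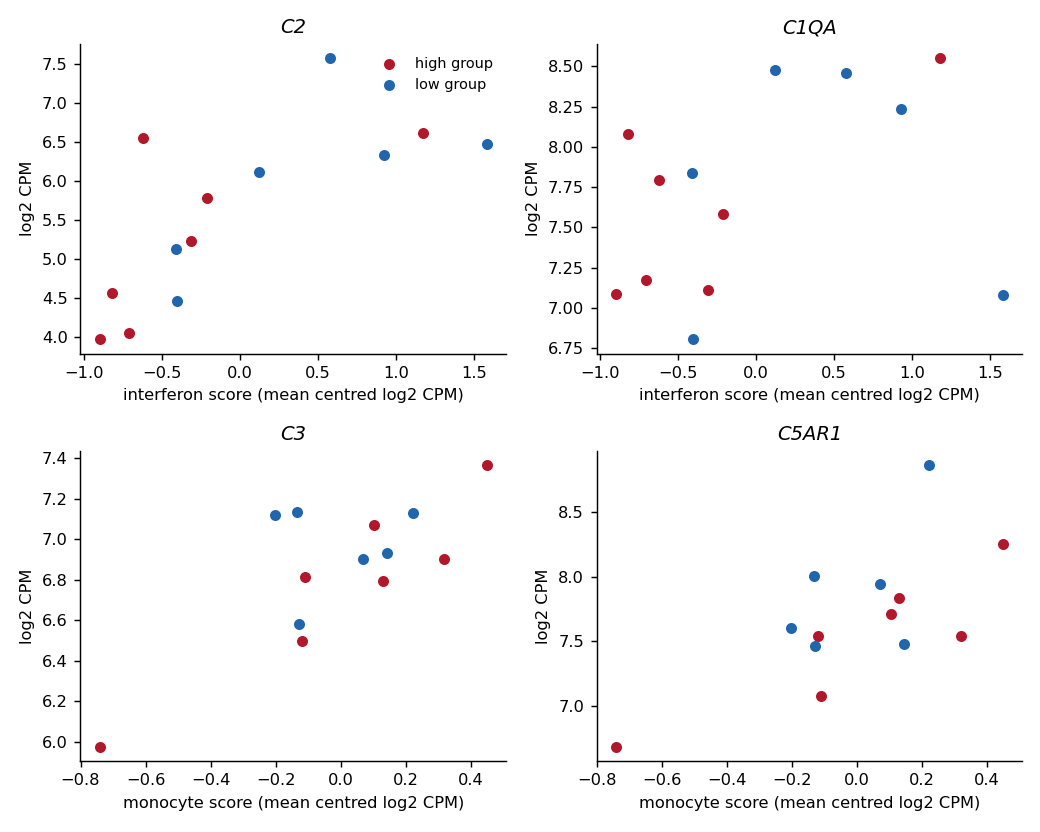
*C2* and *C1QA* against the interferon score (top) and *C3* and *C5AR1* against the monocyte score (bottom), with level in log2 CPM and 1 point per cow (high group red, low group blue). *C2* has r of 0.73 with its score. In the lower panels replicate 7 of the high group lies alone at a score of -0.74 and at the lowest level of both genes.

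Neutrophils carry *C5AR1* as well, and the monocyte score was itself related to the neutrophil score (r 0.79, rho 0.68, over 13 cows), which was built from *CSF3R*, *MMP9*, *S100A8*, *S100A9*, *S100A12* and *PADI4*. The interferon score had r of 0.06 and 0.07 with these scores. For the neutrophil score, 0 of the 8 genes and 0% of all genes were called by edgeR's test. At an unadjusted p below 0.05, 2 of the 8 had a positive slope against 10.3% of all genes, namely *C3* (0.74, standard error 0.24, p 0.00726) and *C5AR1* (1.07, standard error 0.35, p 0.00793), each with an adjusted p of 0.199. DESeq2 and limma-voom called 0 of the 8 for it as well. With the 3 scores in the same fit, *C3* had a monocyte slope of 0.95 (unadjusted p 0.0514) and a neutrophil slope of -0.024. *C5AR1* had a monocyte slope of 0.73 and a neutrophil slope of 0.55 in that fit (unadjusted p 0.188 and 0.317). In these bulk samples the part of monocytes and of neutrophils in *C3* and *C5AR1* cannot be told apart.

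For each gene, the 3 genes with the most similar pattern over the 13 cows were listed by Pearson's r of log2 CPM. These are the highest of 11033 values, so no test goes with them. The C1q chains shared the same 3, *DUSP5*, a phosphatase that acts on MAP kinases, *EBI3*, a subunit of interleukins 27 and 35, and *TMEM51*, with r between 0.86 and 0.91. *C2* was nearest to *PTPRO* (0.91), *ACSL5* (0.90) and *SLC12A7* (0.89), and *C3* to *APLP2*, *ADAMTS2* and *SPATA6* (each 0.90). *CFP* was nearest to *SHISA5* (0.95), *SLC15A3* (0.95) and *LAMP1* (0.94), a protein of the lysosomal membrane. *C5AR1* was nearest to *SEMA4D* (0.96), *CMIP* (0.95) and *VSIR* (0.95), which encodes the checkpoint receptor VISTA. *SERPING1* was nearest to *CHST1* (0.94) and to *TRDC* (0.93) and *TRGV11* (0.92), which encode parts of the gamma delta T-cell receptor. *TRDC* had 232 to 1050 CPM per cow and *TRGV11* 7.25 to 107 CPM.

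The other genes of the system were taken from a list of 35. Of these, 30 had a row in the count tables and 16 passed the filter, 6 with a positive and 10 with a negative log2 fold change (median -0.08). By edgeR's test, 0 of the 16 were called, and 1 had an unadjusted p below 0.05, *CR2*. It encodes complement receptor 2 of B cells and measured 93.8 CPM ± 28.7 (SD, n = 7) in high cows against 61.8 CPM ± 29.4 (SD, n = 6) in low cows. High exceeded low by 0.61 on the log2 scale (standard error 0.28, edgeR p 0.0436, adjusted 0.998), and the exact permutation test gave 0.0641. The summed level of 6 B-cell markers overlapped between the groups, at 1309 to 2869 CPM in the high and 1387 to 2376 CPM in the low group.

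By role, 2 of 9 recognition molecules and proteases passed the filter (*C1R* and *MASP2*), as did 2 of 7 terminal components (*C7* and *C8G*), 6 of 11 regulators and 6 of 8 receptors. *MBL2*, *C8A* and *C8B*, known as liver products, had 0 counts in every cow, where 3 counts would have been 0.107 to 0.272 CPM. Other genes of the list were counted in every cow, such as *MASP2* (80 to 373 counts), *C8G* (145 to 358), *CFI* (20 to 84) and *C9* (2 to 24). *C5* had at most 12 counts and *C6* at most 1. The surface regulators *CD46* and *CD55*, which protect host cells, had log2 fold changes of 0.13 and -0.13 (standard errors 0.17 and 0.16). Of the 16 genes, 0 were called for any of the 3 scores.

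*C1R*, the protease that C1q activates, had r of 0.75 with *C2* and 0.74 with *CFP*, whereas *MASP2*, a protease of the lectin pathway, had r of -0.74 and -0.77 with them. *C5AR2* had r of 0.90 with *C5AR1*, and *ITGB2*, the beta chain of complement receptor 3, had 0.79. These values were picked as the largest among the pairs of these 16 with the 8 genes and carry no test.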

How the data were processed

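Whole blood RNA of 13 cows was sequenced on an Illumina HiSeq without globin depletion. The authors deposited counts, the reads assigned to each gene name, without normalization. The headers give featureCounts 1.4.6-p3 with Ensembl 88 models for UMD3.1, whereas the processing notes name STAR 2.7.3, Subread 1.6.5 and ARS-UCD1.2. Groups are from the labels, and each sample counts as 1 cow. Identical libraries were looked for, and 0 pairs were found.

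CPM and log2 CPM (prior count 2) followed TMM. Genes passing filterByExpr (minimum count 10, minimum total 15) were tested with edgeR 4.0.16 (robust quasi-likelihood) in R 4.3.3, with group or with group and a score, adjusted by Benjamini-Hochberg over all genes. Standard errors are the estimate divided by the square root of F. Correlations carry permutation p (100000 resamples), adjusted likewise unless stated. Alternatives included DESeq2 1.42.0, limma-voom 3.58.1, other scalings, filters and covariates, and each cow left out. Tests were tried on simulated counts. The members and lists were chosen with earlier results of these data known. The genes named are the members, other complement genes past unadjusted p of 0.05 or called, and the 3 nearest genes of each. Other complement genes, markers and unnamed-entry values given beside them were named after their values were seen.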

Additional observations from a re-analysis of the deposited data

Results flagged for a closer look

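Each gene and each score was examined within each group for a cow far from the others (Dixon's test at 95%), which made 44 comparisons of the highest or the lowest cow, and 2 passed the limit. Chance alone passes about 1 in 20 groups. *CFP* in replicate 8 of the low group was 8.66 in log2 CPM (406 CPM), where the next cow had 327 CPM, and the gap was 0.631 of the range of the group, just past the limit. The same cow had the highest interferon score (1.58) and the highest *C5AR1* (465 CPM) of all cows. The interferon score of replicate 5 of the high group was 1.18, where the next high cow had -0.21, and the gap was 0.669 of the range. This cow also had the highest *C1QA*, *C1QB*, *C1QC* and *C2* of the high group.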

How the results depend on the processing

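No paired analysis was possible, as no replicate number is shared. Directions turned as follows, and the cause was not tested. With the haemoglobin share as a covariate the log2 fold changes were 0.23 (*C3*), 0.14 (*CFP*), 0.017 (*C1QB*) and 0.065 (*C1QC*), and with the interferon score 0.057 (*CFP*). With all 3 scores in 1 fit, the slope of *C3* on the interferon score was -0.017, that of *C2* on the monocyte score 0.63, and those on the neutrophil score -0.024 (*C3*), -0.41 (*CFP*), 0.49 (*C1QA*), 0.46 (*C1QB*) and 0.55 (*C1QC*). With limma-voom, the slope of *C2* on the monocyte score was 0.077 and that of *C1QC* on the neutrophil score 0.012. The difference in monocyte score was -0.0023 with the median over its list. With the monocyte score as a covariate, 1 of the 8 genes, *C5AR1* (-0.42), had an unadjusted p below 0.05 for high against low, and DESeq2 called 2 for the monocyte score. With all 3 scores in 1 fit, *CFP* alone had an unadjusted p below 0.05 for the monocyte score (edgeR p 0.0448, adjusted 0.999). For the interferon score *C2* and *C5AR1* did (edgeR p 0.038 and 0.0138, adjusted 0.295 and 0.225), and for the neutrophil score 0 of the 8. The number of all genes past this limit was not counted for the scores in that fit.

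With 1 cow left out, 0 to 1 of the 8 had an unadjusted p below 0.05 for high against low. For the interferon score 1 to 4 did, the 4 being *C2* and the 3 C1q chains (without replicate 8 of the low group). For the monocyte score 2 to 5 did, in either direction. The 5, without replicate 7 of the high group, were the 3 C1q chains and *SERPING1* with negative and *C5AR1* with a positive slope. For the neutrophil score 1 to 3 did, and 0 of the 8 were called in any of these fits. The C1q chains are close to 1 measurement. The number of all genes past this limit was counted in these fits only for high against low. The log2 fold change of *SERPING1* ran from -0.42 to 0.016, and those of *C1QA* (-0.43 to -0.097), *C1QB* (-0.43 to -0.11), *C1QC* (-0.42 to -0.098), *C3* (-0.26 to -0.048) and *CFP* (-0.21 to -0.024) also moved by over 1.5 times, lowest without replicate 5 (C1q chains) or 2 of the high group. Slopes on the interferon score ran from -0.060 to 0.17 (*C3*), -0.018 to 0.54 (*C1QA*), -0.10 to 0.47 (*C1QB*) and -0.41 to 0.39 (*SERPING1*), and that of *C1QC* on the monocyte score from -1.52 to 0.061. Slopes on the neutrophil score ran from -0.14 to 0.42 (*CFP*), -0.77 to 0.23 (*C1QA*), -0.64 to 0.28 (*C1QB*) and -0.52 to 0.36 (*C1QC*). The difference in score between the groups ran from -0.99 to -0.50 for interferon (exact permutation p 0.013 without replicate 5 of the high group), 0.21 to 0.36 for cytotoxic and NK and -0.060 to 0.13 for monocytes.

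Over all genes, 231 had an unadjusted p below 0.05 for high against low, 414 without a filter, 348 with DESeq2, 120 with the haemoglobin covariate, 587 with the neutrophil score as covariate and 191 to 373 with 1 cow left out. Genes called for the interferon score were 70, 344 with DESeq2, 46 with all 3 scores and 30 to 208 with 1 cow left out. For the monocyte score they were 6, 11 without a filter, 10 with limma-voom, 226 with DESeq2, 0 with all 3 scores, 1 with the median over the list and 0 to 6 with 1 cow left out, and for the neutrophil score 0, 170 with DESeq2 and 925 without replicate 2 of the high group. Depth limits *SERPING1* most, at 32 counts in the lowest cow, and 6 and 7 cows leave intervals of the log2 fold change that span 0 for each of the 8.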
